A study of Drosophila melanogaster with 384 samples.

Results

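This account covers 7 genes that encode transcription factors tied to self-renewal of Drosophila neuroblasts, namely dpn, klu, wor, SoxN, Myc, zld and scrt. They were chosen by name and matched through their FlyBase identifiers to 7 of the 14219 features of the deposited table, of which 11824 hold a read. The study sequenced single neuroblasts, which are stem cells of the nervous system, taken from the central brain of Drosophila melanogaster at the wandering third-instar stage, 6 to 7 days old and reared at 29 °C. All larvae carried UAS-Dcr2, inscGal4 and UAS-CD8::GFP, so that Gal4 under inscuteable control drove the membrane GFP used for sorting, Dicer-2 and a hairpin. In control larvae the hairpin was sh-mCherry, and in tumor larvae it was sh-brat, against the translational repressor brat. Cells from a pool of 5 control brains and a pool of 3 tumor brains were sorted singly and filled 2 plates of 96 wells per group.

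A neuroblast divides asymmetrically, renews itself and gives off a smaller daughter that differentiates. Brat is inherited by that daughter, where it binds transcripts of self-renewal factors and blocks their use, and loss of brat lets daughters of type II neuroblasts revert to stem cells. Dpn is a Hes-type bHLH repressor and Klu a zinc finger factor of the EGR class, and both act downstream of Notch in type II lineages. Wor is a zinc finger factor of the Snail family, SoxN a SoxB factor of early neural fate, Myc the growth regulator, and Zld the pioneer factor known from the early embryo. Scrt is a zinc finger factor related to the Snail family that promotes neuronal fate.

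The wells carried library numbers that fall into 4 runs with the same 96 index pairs each, taken here as plates, with plates 1 and 2 control and plates 3 and 4 tumor. At least 100000 reads and 1000 genes were found in 89, 91, 93 and 92 wells of plates 1 to 4, and these cells were used. The median depth was 1507070 reads per control cell and 1122670 per tumor cell. Tumor cells also held fewer genes, with a median of 3164 per cell against 5016.5 in control cells at 100000 reads each (3651 against 5801.5 at full depth), and the part of this in the values below was not tested. Each group is 1 pool of brains, so no test was possible, cells are not replicates, and the 4 tumor plate over control plate ratios show the only visible spread. Plate and group cannot be told apart. The neuroblast markers dpn, wor, mira, insc and ase summed to 3101 to 3483 counts per 1000000 reads (CPM) on the control plates and 4686 to 5301 CPM on the tumor plates, and none was at 0, though dpn and wor are themselves among the 7 genes. The other 3 markers alone summed to 1525 and 2057 CPM on the control plates and 1491 and 1754 CPM on the tumor plates. The 5 neuron markers summed to 118.1 to 152.3 CPM and 364 to 387 CPM on the same plates. In the control and tumor pools elav was at 97.2 and 247 CPM, fne at 17.3 and 103.5 CPM, and Syt1 at 16.9 and 23.7 CPM. The mature neuron genes nSyb and brp went the other way, at 3.32 and 0.62 CPM in control and at 0.66 and 0.03 CPM in tumor cells. The 4 glia markers gave 26.6 to 37.1 CPM on control and 46.4 to 49.1 CPM on tumor plates. Most of it was loco, at 30.95 and 45.9 CPM in the pools, with repo at 0.09 and 0.05 CPM. In the pools the 3 ganglion mother cell markers summed to 557 and 512 CPM. The 4 intermediate progenitor markers summed to 74.3 and 100.4 CPM and the 3 optic lobe epithelium markers to 393 and 674 CPM. Of these, pros (465 and 279 CPM) and ey (19.3 and 7.93 CPM) were lower in tumor cells and the others higher. The part of these markers in the values of the 7 genes was not tested. The hairpin target brat had a pooled level of 343 CPM in control cells against 88.1 CPM in tumor cells, and its log2 ratio ran from -2.19 to -1.74 over the plate pairs.

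Positions are from the Ensembl annotation of BDGP6. The gene dpn (FBgn0010109) lies on chromosome 2R from 8228971 to 8232330 and shares 1207 exonic bases with an antisense RNA gene. The gene klu (FBgn0013469) spans 10981171 to 11009188 on 3L and scrt (FBgn0004880) spans 3983896 to 3994003 on the same arm. On 2L lie wor (FBgn0001983), at 15423297 to 15425580, and SoxN (FBgn0029123), at 8825645 to 8829670. On the X chromosome, Myc (FBgn0262656) spans 3373159 to 3391697 and zld (FBgn0259789) spans 19766465 to 19783548. Exons of Myc share 1859 bases with a long noncoding RNA gene on the same strand and 3754 bases with CG12535 on the other strand, a gene with 1.16 CPM in control cells against 3.00 CPM in tumor cells. The sources used here do not give whether counting used strand. No exon of klu, wor, SoxN, zld or scrt overlaps another annotated gene.

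Levels between genes were compared as CPM per kilobase of exonic length, because full-length libraries give more reads to longer transcripts. In control cells dpn was highest at 452 CPM per kilobase, followed by wor at 262, klu at 84.1, SoxN at 59.1, Myc at 30.3, zld at 24.5 and scrt at 0.39. The plates of control cells gave 24.2 and 36.5 for Myc and 32.7 and 16.3 for zld, so these neighbours did not differ beyond their spread, and the others kept separate ranges. In tumor cells wor came first at 819.9 CPM per kilobase, with dpn at 756, klu at 309, SoxN at 241, Myc at 155.7, zld at 31.7 and scrt at 0.31. There wor ranged from 751 to 897 over the plates and dpn from 749.8 to 763, so their order was within the spread.

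**Figure D1:**
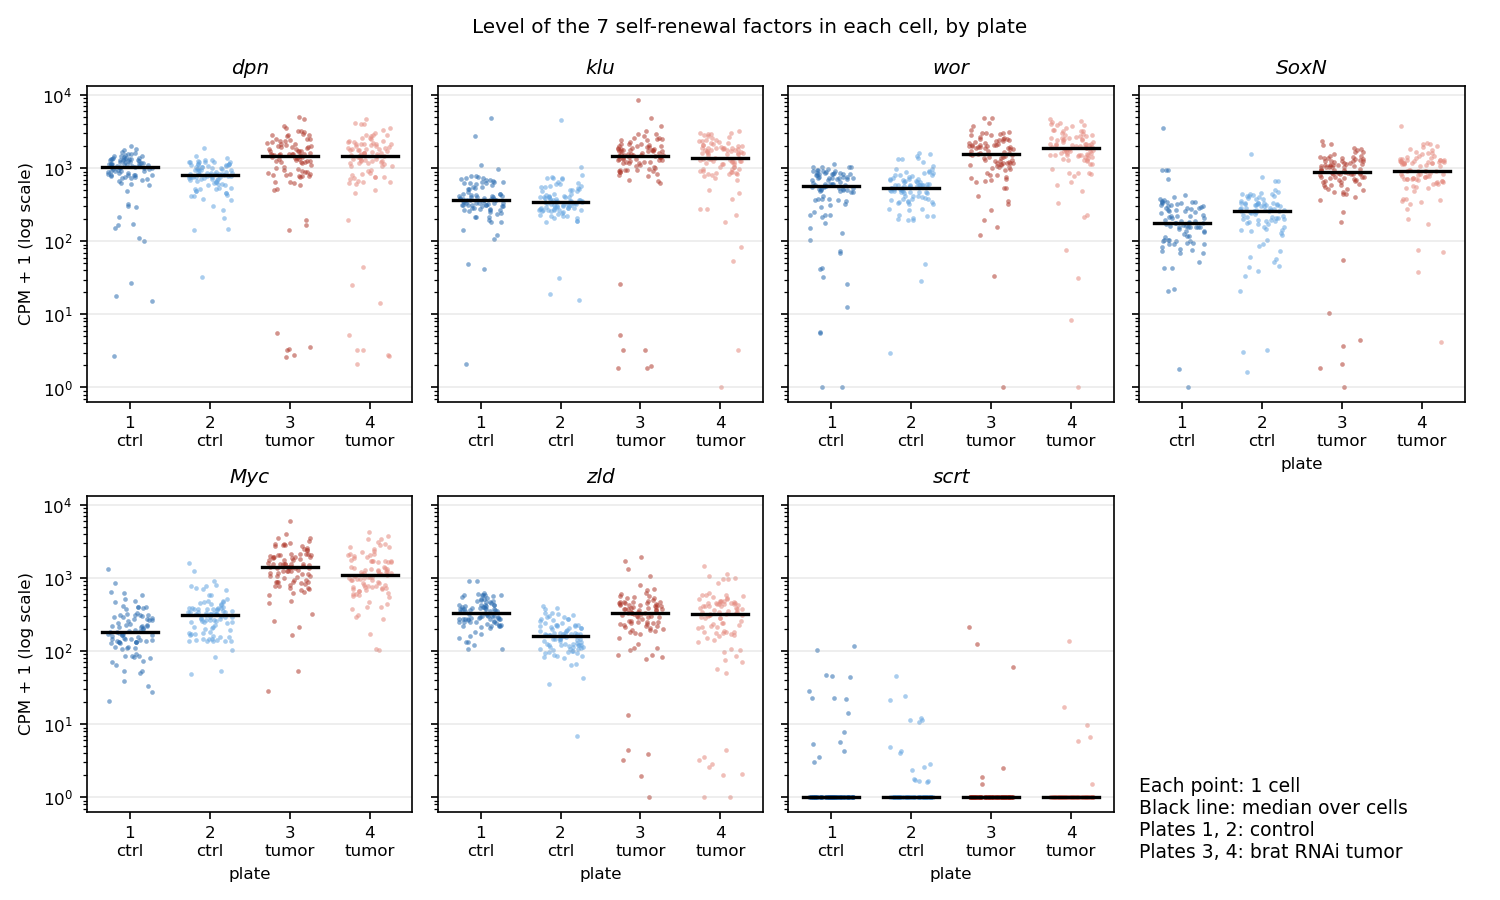
Level of each gene in every kept cell, as CPM + 1 on a log axis, by plate (plates 1 and 2 control, plates 3 and 4 tumor). Each point is 1 cell and the black line is the median over cells. The medians of dpn, klu, wor, SoxN and Myc lie higher on each tumor plate than on each control plate, zld has its lowest median on plate 2, and scrt is at 0 in most cells.

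Among the zinc finger and bHLH factors of the stem cell state, klu and wor were over 3-fold higher in tumor cells and dpn less than 2-fold higher. The middle 50% of control cells held 287 to 545 CPM of klu on plate 1 and 272 to 440 CPM on plate 2, with medians of 372 and 343 CPM. On the tumor plates the corresponding range was 1051 to 1897 CPM on plate 3 and 923 to 1887 CPM on plate 4, with medians of 1479 and 1374 CPM. The quartile ranges of klu in control and tumor plates did not meet. Summed over cells, klu reached 403 CPM in control cells against 1480.3 CPM in tumor cells, 3.67-fold higher, with log2 ratios of 1.80 to 1.96 over the 4 plate pairs.

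For wor, the Snail-family gene, single control cells ranged from 0 to 1145 CPM on plate 1 (median 570.0) and from 1.93 to 1636 CPM on plate 2 (median 538). Tumor cells ranged from 0 to 4908 CPM on plate 3 (median 1539) and from 0 to 4653 CPM on plate 4 (median 1893). The upper quartile of every control plate, at most 802 CPM, lay below the lower quartile of every tumor plate, at least 1022 CPM, although single cells of the groups overlapped. The pooled level was 582 CPM in control cells against 1822 CPM in tumor cells, 3.13-fold higher, and the log2 ratio over plate pairs ran from 1.49 to 1.81.

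For dpn, the Hes-type repressor, the median cell held 1031 and 802 CPM on the control plates and 1482 CPM on each tumor plate. Lower quartiles of 861 and 822 CPM in tumor cells overlapped the control range, whose upper quartiles were 1281 and 1027 CPM, and 49 tumor cells lay below the control median. The pooled ratio was 1.67 (919.6 CPM in control cells against 1539.5 CPM in tumor cells), and no plate pair reached 2-fold, with log2 ratios of 0.60 to 0.90.

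SoxN and Myc showed the largest ratios of the 7 genes. For SoxN the median cell held 174.9 and 259 CPM on the control plates and 878 and 919 CPM on the tumor plates. The groups were apart at the quartiles, with an upper quartile of at most 334 CPM in control and a lower quartile of at least 643 CPM in tumor. Pooled, SoxN stood at 238 and 971 CPM, 4.08-fold higher, with log2 ratios from 1.83 to 2.24 over the plate pairs.

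For Myc the control medians were 180.2 CPM on plate 1 and 309 CPM on plate 2, and the tumor medians 1423 CPM on plate 3 and 1087 CPM on plate 4. A Myc read was present in all 365 cells, and 7 tumor cells lay below the control median of 245 CPM. The pooled level was 278 CPM in control and 1428 CPM in tumor, 5.13-fold higher. The plate pairs gave log2 ratios from 1.95 to 2.80, the widest range among the 4 genes past 2-fold, as the control plates alone differed 1.51-fold.

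The pioneer factor zld did not separate the groups. Its median cell held 329 CPM on control plate 1, 158.4 CPM on control plate 2, and 329 and 319 CPM on the tumor plates. The control plates therefore differed from each other 2.00-fold in pooled level (347 and 172.96 CPM), while the tumor plates stood at 337 and 335 CPM. Against plate 1 the log2 ratios were -0.04 and -0.05, and against plate 2 they were 0.96 and 0.95, so the pooled ratio of 1.29 depends on which control plate is used. Over all genes of at least 5 CPM the median absolute log2 ratio between the control plates was 0.40, and for zld it was 1.00.

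The neuronal factor scrt was near absent in both pools, with 920 reads in control and 580 in tumor cells, or 3.50 and 2.84 CPM. The plates held 5.21, 1.77, 3.72 and 1.84 CPM in order, and log2 ratios over plate pairs ran from -1.50 to 1.08, so no direction is given. A few cells carried most of it: 4 control cells held at least 50% of the control reads and 2 tumor cells at least 50% of the tumor reads. The highest single tumor cell reached 213 CPM and the highest control cell 115.1 CPM.

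With 1 pool per group, called here means a ratio of at least 2-fold on pooled levels, among genes with a mean level of at least 5 CPM. Of the 6 genes past that level, all but scrt, 4 were at least 2-fold higher in tumor cells (klu, wor, SoxN and Myc) and 0 lower, against 13.1% of 6450 genes called higher and 14.7% called lower. The same 4 genes were past 2-fold in all 4 plate pairs, against 6.90% of all genes. The median log2 ratio was 1.76 over the 6 genes and 0.00 over all 6450. These genes were chosen with earlier results of these data known, so the contrast with all genes is a description only.

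**Figure D2:**
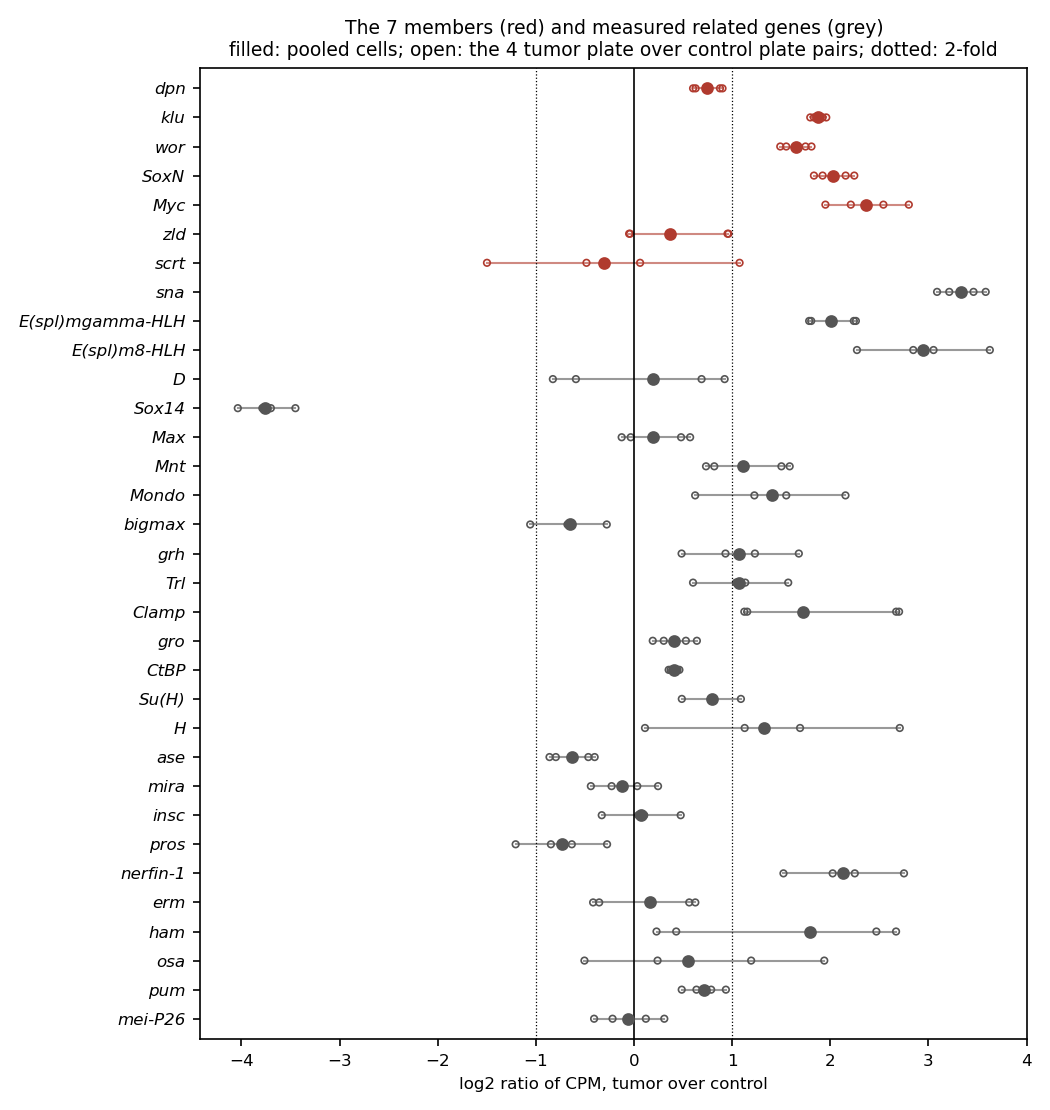
Log2 ratio of CPM, tumor over control, for the 7 genes (red) and the related genes of at least 5 CPM (grey). Filled points are pooled cells, open points the 4 tumor plate over control plate pairs, and dotted lines mark 2-fold. The points of klu, wor, SoxN and Myc stay right of 1 in every pair, while those of zld and scrt lie on either side of 0.

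Most tumor cells but few control cells had a type II profile, meaning that 3 or more of the type II genes pnt, btd, tll and Sp1 had 5 reads or more, so the genes were also compared within that class. It held 8 control cells, and 83 and 74 tumor cells on plates 3 and 4. In control cells the log2 ratios of type II-like over other cells ran from -0.30 for zld to 0.34 for SoxN. Of the 8 control cells 2 were on plate 1 and 6 on plate 2, where zld was lower in all cells, and within the plates the ratio was 0.09 and -0.12 for zld and -0.42 and 0.41 for SoxN. Type II-like tumor cells over type II-like control cells gave log2 ratios of 2.23 for Myc, 2.05 for klu, 1.78 for SoxN, 1.64 for wor, 0.78 for zld and 0.73 for dpn. The 4 genes past 2-fold over all cells were therefore also past 2-fold within the class, where the control side rests on 8 cells, most of them of plate 2.

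The 28 tumor cells outside the class had lower medians for every gene but scrt, whose median was 0 in both. Their median cell held 95.7 CPM of dpn, against 1517 CPM in type II-like tumor cells, and 47.1 CPM of zld, against 338 CPM. The medians of wor were 1113 and 1818 CPM and those of Myc 571 and 1378 CPM, so the gap was smaller there. Pooled levels were less far apart than medians for dpn, at 1197 and 1594 CPM, and single cells outside the class reached 4675 CPM.

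**Figure D3:**
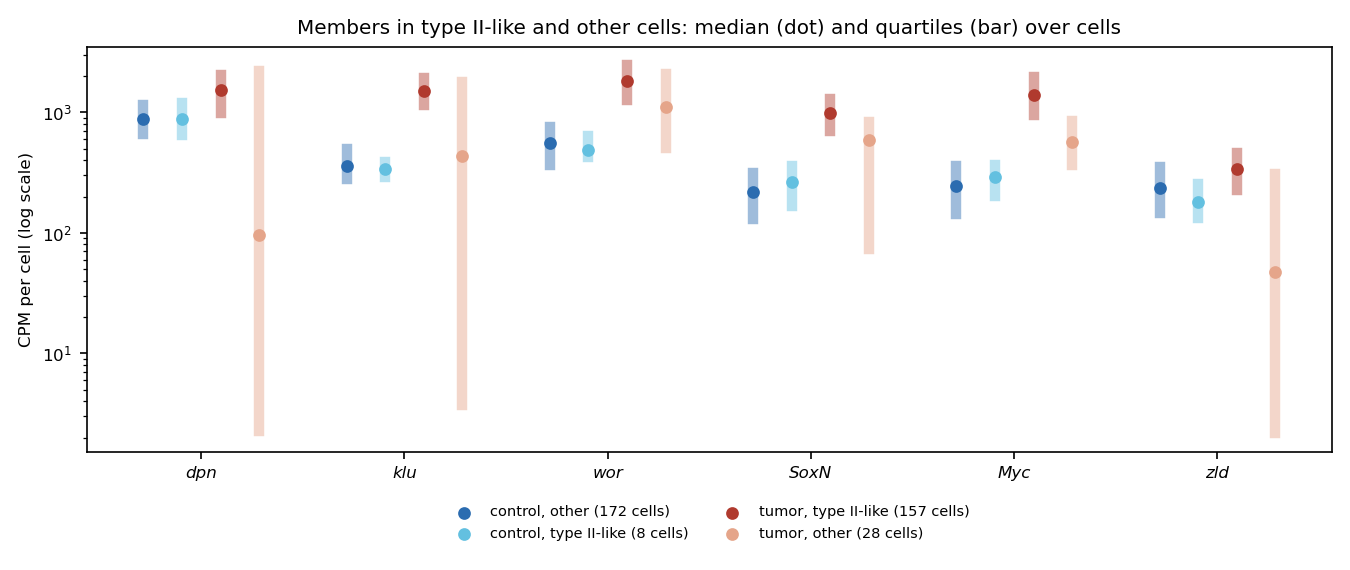
Level per cell of 6 genes in type II-like and other cells of each group, as the median (dot) and quartiles (bar) over cells on a log axis of CPM. Type II-like tumor cells lie above both control classes for klu, wor, SoxN and Myc. In the 28 other tumor cells the bars of dpn, klu and zld reach down to a few CPM.

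Nearly every cell transcribed 6 of the genes. With each cell thinned to 100000 reads, the 6 genes other than scrt all had a read in 95% of control cells (exact Clopper-Pearson interval at 95% confidence, 90.7 to 97.7) and all did in 89.2% of tumor cells (83.8 to 93.3). By gene, the share with a dpn read was 98.9% in control and 96.2% in tumor cells, and for wor it was 97.8% and 98.9%. For zld the share was 100% of control cells against 93.5% of tumor cells (88.9 to 96.6), although its pooled level was not lower there. For scrt it was 9.44% in control (5.60 to 14.7) and 3.78% in tumor cells (1.53 to 7.64), or 18.9% and 6.49% without thinning. No cell type that should lack scrt was sorted, so no background share could be set beside these. These intervals cover counting error only, and reads without molecular identifiers include PCR copies.

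Every kept cell held a dpn read at full depth, but some held little. Counting cells under 50 CPM, a value set after the gap in the dpn values was seen, 5 control cells and 15 tumor cells were low for dpn. Of the 5 control cells, 4 were also low for wor, 3 for klu and 0 for zld. Of the 15 tumor cells, 0 were low for wor and 1 for Myc, but 10 were low for zld and 8 for klu. The 15 tumor cells were not shallow, with at least 804654 reads each, and 14 of them were outside the type II-like class. At least 5 reads of nerfin-1, a zinc finger factor of early neuronal differentiation, were present in 13 of the 15 tumor cells, against 12.4% of all tumor cells, and in 2 of the 5 control cells, against 7.78% of all control cells. At least 5 reads of mira, a cargo adaptor of neuroblast division, were found in 7 of the 15, against 94.1% of all tumor cells, while ase, a bHLH neuroblast gene, went the other way with 13 of the 15 against 34.6%. For insc, which couples spindle and polarity, the count was 9 of the 15 against 63.8%. No difference between the low cells of the groups was tested.

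Cell-to-cell spread was measured as the coefficient of variation (CV) of CPM at equal depth within each plate. In control cells the CV was 0.48 and 0.41 for dpn, 0.59 and 0.57 for wor, and 0.44 and 0.54 for zld on plates 1 and 2. In tumor cells it was 0.64 and 0.65 for dpn, 0.60 and 0.54 for wor, and 0.83 and 0.76 for zld on plates 3 and 4. So dpn and zld were more variable on each tumor plate than on each control plate, and wor was not. The median CV of genes of like mean level was also higher in tumor cells, for zld 0.54 and 0.57 on the control plates and 0.79 and 0.84 on the tumor plates, and for dpn 0.41 and 0.36 against 0.48 on each tumor plate.

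For klu and SoxN the CV was higher on the control plates. The CV of klu was 1.22 and 1.14 on the control plates and 0.68 and 0.52 on the tumor plates, and that of SoxN 1.55 and 0.73 against 0.54 and 0.57. The highest klu levels in control, 4875 and 4603 CPM, came from cells with 210066 and 126882 reads, and the first of these also held the highest SoxN level of 3561 CPM. With cells of at least 500000 reads and 2000 genes, an alternative added after seeing the data, the mean control CV was 0.63 for klu in place of 1.18, and 0.66 for SoxN in place of 1.14. The mean tumor CV under this filter was 0.52 for klu and 0.54 for SoxN. The part of shallow cells in these values was not tested further. The upper quartile over the lower quartile of klu was 1.90 and 1.62 in control and 1.81 and 2.04 in tumor cells. The Myc CV was 0.84 and 0.71 in control and 0.63 and 0.66 in tumor cells. With the filter of 500000 reads and 2000 genes its mean was 0.64 in control and 0.63 in tumor cells, so the groups were then alike.

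Levels of dpn and wor followed each other from cell to cell in both groups. Spearman's rho over cells was 0.44 on each control plate and 0.53 and 0.50 on the tumor plates, at 100000 reads per cell. Among the 5109 other genes detected in 50% or more of the control cells, wor had the highest mean rho with dpn, and it did again among 2914 such genes in tumor cells. Of all gene pairs 0.0218% in control and 0.00928% in tumor cells had a mean rho as high as that of dpn and wor. Cells of a plate share their pool, sort and library run, and within type II-like tumor cells the mean rho was 0.50. These values describe cells and carry no p-value. The rho of dpn with genes per cell was 0.48, 0.06, -0.24 and 0.04 on plates 1 to 4, and at given genes per cell the mean rho of dpn and wor was 0.36 in control and 0.51 in tumor cells.

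**Figure D4:**
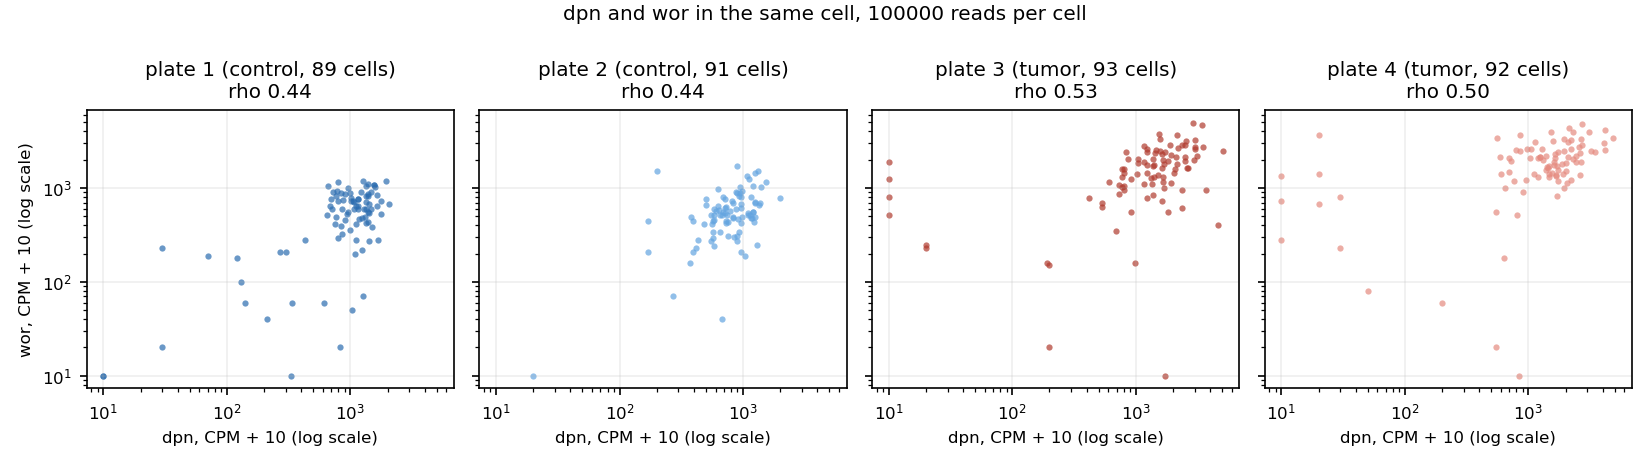
Level of dpn against wor in the same cell at 100000 reads per cell, as CPM + 10 on log axes, 1 panel per plate with Spearman's rho. The cloud rises to the right on every plate. On tumor plates 3 and 4 a second set of cells sits at the left edge, near 0 for dpn, while still holding wor.

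By Spearman's rho the other pairs were lower than this one. That order was lost in tumor cells with Pearson's r of log2(CPM + 1), where dpn with wor was at 0.30, 7 of the 15 pairs were higher and dpn with klu was highest at 0.78. Over the 15 pairs without scrt the median of the mean rho was 0.17 in control and 0.18 in tumor cells, against 0.06 over 13053495 gene pairs and 0.04 over 4247155. In control cells 3 of the 15 pairs lay above the 95th percentile of all pairs (0.22), namely dpn with wor, dpn with klu (0.28) and Myc with zld (0.24). In tumor cells 6 of the 15 lay above it (0.19), namely dpn with wor (0.52), dpn with klu (0.41), SoxN with Myc (0.195), klu with wor (0.31), wor with SoxN (0.27) and dpn with SoxN (0.23). The rho of dpn with klu was 0.18 and 0.38 on the control plates and 0.50 and 0.33 on the tumor plates, so the ranges overlap, and the difference between groups was not tested. Within type II-like tumor cells the median over the 15 pairs was 0.06, and dpn with klu stood at 0.22, both below their values over all tumor cells. The pair of zld with wor had a mean rho of -0.08 in control and 0.08 in tumor cells.

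**Figure D5:**
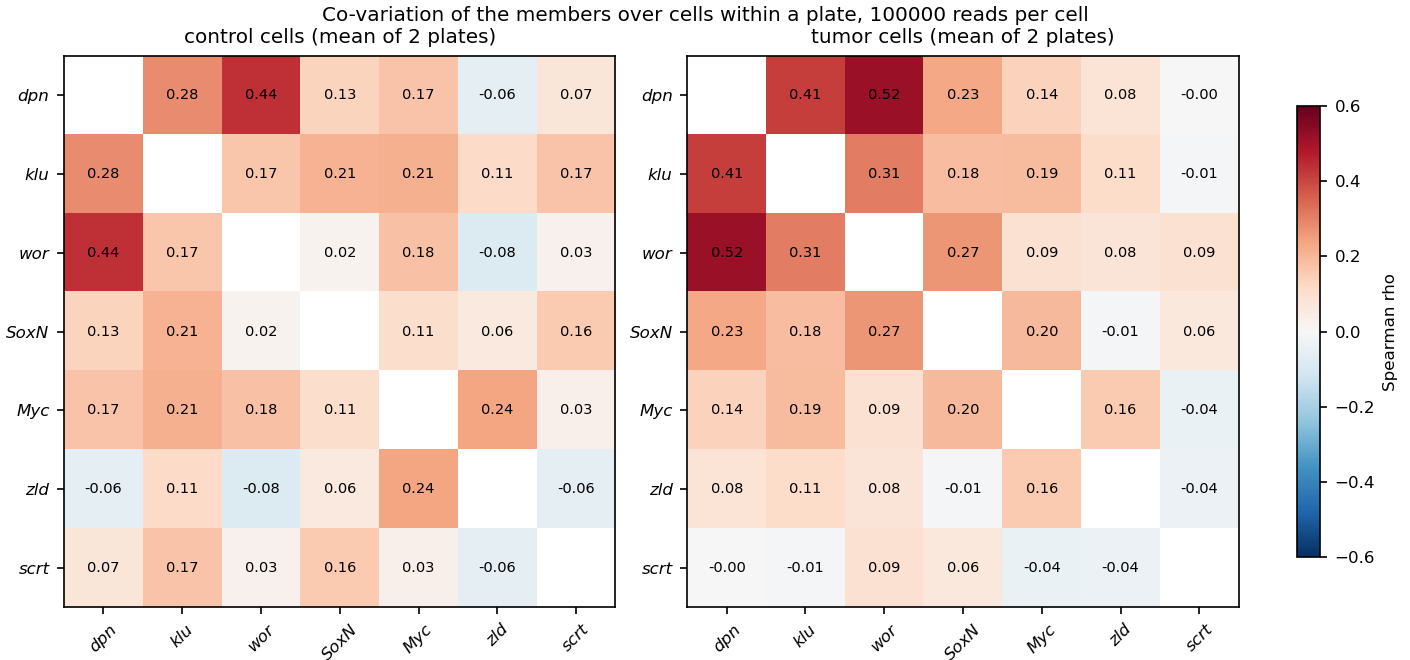
Spearman's rho between the 7 genes over cells within a plate, as the mean of the 2 plates of a group, for control cells (left) and tumor cells (right). The strongest cell of each matrix is dpn with wor, at 0.44 and 0.52, and the row of scrt is pale in both.

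By mean rho, dpn and wor were among each other's 3 nearest genes in both groups. The lists come from 5109 genes in control and 2914 in tumor cells, and the difference between groups was not tested. For wor they were sna, another Snail-family gene (0.45), dpn and Aef1 (0.38) in control cells, and dpn, the orphan receptor gene tll (0.45) and sna (0.37) in tumor cells. For dpn they were wor, CG6418 (0.44) and lili (0.43) in control, and wor, the Notch target E(spl)m8-HLH (0.44) and klu in tumor cells. For klu the nearest in control were drn (0.34), CG5953 (0.32) and CG43736 (0.32), with rho of 0.05, -0.02 and -0.13 in tumor cells. In tumor cells the nearest to klu were dpn, the ETS factor gene pnt (0.40) and E(spl)mgamma-HLH (0.39), and pnt with klu was at -0.03 in control cells, where 5.56% of cells had a pnt read.

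For Myc the nearest genes in control cells were CG2865 (0.45), Thor, the 4E-BP gene (0.42), and aop, an ETS repressor gene (0.40). In tumor cells they were the feature FBgn0262735, for which no symbol was found (0.55), the ecdysone importer gene Oatp74D (0.52) and Nop60B, a pseudouridine synthase gene of the nucleolus (0.51). The same 3 had rho of -0.10, 0.03 and 0.16 with Myc in control cells. For SoxN the nearest were msi, an RNA-binding protein gene (0.33), corto (0.32) and Eip75B (0.31) in control, and tll (0.40), the feature FBgn0001981 (0.36) and shu (0.34) in tumor cells. In the other group these stood at 0.21 for msi, 0.19 for corto and 0.20 for Eip75B, and at 0.24 for tll, 0.20 for FBgn0001981 and -0.06 for shu. For zld they were COX8 (0.32), RpLP0 (0.31) and RpS28b (0.30) in control, and pnt (0.40), E(spl)mgamma-HLH (0.33) and RpLP1 (0.30) in tumor cells. In tumor cells COX8 was at 0.26, RpLP0 at 0.01 and RpS28b at 0.11. In control cells RpLP1 was at 0.24, pnt at 0.01 and E(spl)mgamma-HLH at 0.003. For scrt the highest was 0.28 (hzg, tna and Cog3 in control, RasGAP1, Hat1 and brm in tumor cells), and with so few reads these values are no finding.

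Of the related genes, listed by family and partner, more were called higher than lower. Of 34 listed, 31 matched a feature and 26 reached 5 CPM. Called higher were 11 of these, against 13.1% of all 6450 genes, and called lower 1, against 14.7%, and their median log2 ratio was 0.63. This list was chosen with earlier results of these data known. The Snail-family gene sna had 133.2 CPM in control cells against 1344.5 CPM in tumor cells, a log2 ratio of 3.34 (pairs 3.09 to 3.58), larger than that of its relative wor. The Hes-family Notch targets E(spl)mgamma-HLH (1577 and 6317 CPM) and E(spl)m8-HLH (317 and 2437 CPM) had log2 ratios of 2.00 and 2.94, against 0.74 for dpn.

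SoxN was called higher, which neither of the other Sox genes that reached 5 CPM was. Sox14, a target of ecdysone signaling, was at 12.9 and 0.96 CPM with a log2 ratio of -3.76, and D, a SoxB relative, was at 161.7 and 184.9 CPM with pairs from -0.83 to 0.92. Sox15, Sox21a, Sox21b and Sox102F were under 5 CPM. In the Myc network, Max, the dimer partner of Myc, was at 73.9 and 84.5 CPM (log2 ratio 0.19). Mnt, a repressor that shares this partner, was at 38.3 and 82.9 CPM (1.11), Mondo at 25.3 and 67.1 CPM (1.41), and bigmax, the partner of Mondo, at 112.6 and 71.4 CPM (-0.66). The plate pairs of Mnt and Mondo started at 0.73 and 0.62, so they were not past 2-fold in every pair.

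The pioneer and chromatin factor genes grh (333 and 696 CPM), Trl (381 and 798 CPM) and Clamp (42.1 and 138.7 CPM) had log2 ratios of 1.07, 1.06 and 1.72, and of these Clamp was past 2-fold in every pair (1.12 to 2.70). Among corepressors and Notch effectors, H was called higher at 32.4 and 81.03 CPM (1.32, pairs 0.11 to 2.71). The log2 ratio was 0.41 for gro, 0.41 for CtBP and 0.80 for Su(H). Neuroblast division genes were not called, with mira at 1558 and 1436 CPM, insc at 73.97 and 77.45 CPM, and ase at 157.8 and 102.04 CPM (-0.63). Of the genes that end self-renewal, nerfin-1 was at 19.4 and 84.5 CPM (2.12) and ham at 8.04 and 27.8 CPM (1.79, pairs 0.23 to 2.67), while pros (-0.74), erm (0.16) and osa (0.55) were not called. The brat partner genes pum (0.71) and mei-P26 (-0.06) were not called, and the EGR-class gene sr was under 5 CPM.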

How the data were processed

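Sorted single cells were amplified by SMART-Seq2 with 18 PCR cycles, per the labels' protocols. The deposited table holds raw read counts per gene and cell made by the authors, judging from whole numbers whose cell totals differ. Per the submitters' processing notes the genome builds were BDGP6 and dm6. For the aligner, the counter and strand use, nothing is given in the sources used here. Features were named through a table of gene IDs, which matched 13702 of 14219 features. The listed genes esg, h and nos matched none by symbol and are in no list value, though they may be among the features without a symbol that are printed by ID.

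The members and lists were chosen with earlier results of these data known. Named are the members, brat, every listed relative or partner and, per member and group, the 3 genes with the highest mean within-plate rho among those read in at least 50% of cells.

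Wells under 100000 reads or 1000 genes were left out (12 control, 7 tumor). Kept cells held 126882 to 2329488 reads. Reads were summed per group or plate and given as CPM. For ratios, sums under 3 reads over a group or plate were set to a floor of 3. Poisson and Clopper-Pearson intervals (95%) cover counting error only. For shares, CV and rho each cell was thinned to 100000 reads. Doublets were not called, because cells went singly into wells per the labels. Ratio and rho steps were tested on simulated data. Alternatives are in the closing section. Work used Python 3.11.15 (numpy 2.4.6, pandas 2.3.3, scipy 1.17.1, matplotlib 3.10.9) and R 4.3.3 with edgeR 4.0.16, for TMM factors.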

Additional observations from a re-analysis of the deposited data

Results flagged for a closer look

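Reads of klu and SoxN in wells left out of the comparison exceeded the level of the kept control cells. The 12 control wells left out for low depth held klu at 4948 CPM, against 403 CPM in the kept control cells, and SoxN at 937 CPM, against 238 CPM. What marks them is a signal outside the main comparison above the control level. A single well of 41844 reads gave 1337 of the 1453 klu reads, and another of 94781 reads gave 258 of the 275 SoxN reads. In the same wells zld stood at 324 CPM and Myc at 259 CPM, with counting intervals that met those of the kept control cells (260.2 and 278 CPM). For scrt 0 reads were found, a count that could not be told from its kept control level at this depth, and dpn and wor were lower, at 208 and 108.98 CPM.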

How the results depend on the processing

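The count of members at least 2-fold higher, always made without scrt, was 4 under every alternative run for it. No ratio called on all kept cells changed sign. The log2 ratio of klu, 1.88, was 1.75 with cells weighted equally, 2.07 by the median over cells, 1.76 after thinning and 2.05 in type II-like cells. That of SoxN, 2.03, was 1.78 in type II-like cells. Leaving out each plate moved zld between -0.045 and 0.957. For scrt the 8 type II-like control cells held 0 reads, which gives a log2 ratio of 3.45, past 2-fold, at the floor of 3 reads. That value rests on these 8 cells, and only 18.9% of all control cells held a scrt read at full depth, so no direction is given. Without the highest cell of each plate the scrt ratio over all kept cells was -1.11, the opposite sign. The mean rho of dpn and wor in control cells, 0.44, was 0.48 without thinning, 0.71 as Pearson's r of log2(CPM + 1), 0.36 given genes per cell and 0.43 in cells of at least 500000 reads and 2000 genes, a filter added for rho after seeing the data, as were ratios against control cells outside the type II-like class and ratios without the highest cell of each plate. In tumor cells, where it was 0.52, it was 0.30 as Pearson's r, where it was no longer the highest pair, and 0.50 in type II-like cells. The median over 15 pairs ran from 0.0788 to 0.19 on single control plates, and in tumor cells it was 0.30 as Pearson's r and 0.0615 in type II-like cells. The cause of these shifts was not tested. The other alternative values, 97 log2 ratios and 17 of rho, moved by no more than the spread (SD) between plates or plate pairs. TMM and median-of-ratios scaling shifted log2 ratios by 0.06 and 0.04. Without a minimum level 15.99% of genes were called higher. No paired analysis was possible because the title numbers only count cells and each group is 1 pool. Levels of scrt are limited by depth, and leaving out each plate moved its log2 ratio between -0.92 and 0.68.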

Other observations

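The rho of some genes with members was of unlike size in the groups. The pairs given here were picked from the rho of every member with the listed relatives and partners, the type II genes and brat. How many of all those pairs had the same signs was not counted, so the picked pairs are examples only. With ase, a bHLH gene of type I neuroblasts, dpn was at 0.47 and 0.31 on the control plates and -0.36 and -0.17 on the tumor plates. The rho of ase with klu, wor, SoxN and Myc had these signs too, though SoxN was at 0.02 on each control plate. With zld and scrt it did not. The same signs held for Myc with pros (0.42 and 0.14, then -0.28 and -0.20) and with insc (0.17 and 0.22, then -0.20 and -0.25), and for klu with pros. The rho of zld with nerfin-1 was -0.43 and -0.50 on the tumor plates, where 11.4% of cells had a nerfin-1 read, and -0.01 and -0.04 on the control plates, where 6.11% did. For Myc with its repressor relative Mnt it was 0.22 and 0.50 on the control plates and 0.01 and -0.15 on the tumor plates. For mira with dpn it was above 0 on all 4 plates (0.38, 0.18, 0.44 and 0.36). The rho of the members with brat in tumor cells, where the hairpin acts, ranged from -0.12 for zld to 0.06 for SoxN. These are descriptions over cells of 1 pool per group, and the differences between groups were not tested.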
